A study of Mus musculus with 8 samples.

Results

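The 4 liver arrays of a study with 8 arrays are described here for a single quantity, the difference between 2 strains in how the liver transcriptome differed after 1 day of diet choice. The strains were male C57BL/6J (B6) and male B6.CAST-17 congenics, homozygous for a CAST-derived segment of chromosome 17 placed on the B6 background. Both strains were sampled on chow and after 24 hours with a choice between a carbohydrate diet and a fat diet (2-choice), each holding 78% of its main macronutrient and 22% protein. The question in the study's title is which genes are candidates for a nutrient intake locus on chromosome 17, and liver and hypothalamus were both profiled for it.

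Each array held RNA pooled from 6 male mice. The mice were not a random sample of their strain: 20 to 25 animals per strain had been screened for diet self-selection over 10 days, those with the most divergent intake were kept, and they spent 6 weeks back on chow before the choice was offered again. The labels place tissue collection 4 hours before lights out for the choice condition, and the collection time of the chow mice is not stated in them. Ages and the ends of the donor segment are not stated either. Titles set the groups here, and the separate fields for strain, tissue and diet say the same. The free-text descriptions of the liver samples name hypothalamus, those of the chow livers name the choice diet, and that of the B6 choice liver names the congenic strain. Hepatocyte transcripts were bright on all 4 arrays: albumin (Alb) lay at 20.07 to 21.40 on the log2 intensity scale and transthyretin (Ttr) at 20.39 to 21.56.

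For each probe the diet response of a strain was its log2 intensity on 2-choice minus that on chow, and the response difference was the congenic response minus the B6 response. A positive value means that the congenic liver stood higher after the choice, relative to its own chow level, than the B6 liver did. Of 33012 probes, the 19807 with a mean log2 level of at least 9.04 (the 40th percentile of probe means over the livers) were kept, and their singly named probes stand for 9748 genes, with the brightest probe used where a gene has several. With 1 pool per strain and diet there is no replicate, no error term and no test, and the number of arrays limits the precision of every value below, so "past 2-fold" is a statement of size only. The deposited chow livers shared one intensity distribution (median 700.0) and the choice livers another (median 702), so in a single strain's response the diet and the authors' scaling cannot be told apart. The response difference also equals the strain gap on 2-choice minus the strain gap on chow, and each of those gaps lies inside one scaling set.

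The liver is the organ that turns surplus dietary carbohydrate into fat. Insulin acting through SREBP-1c, and glucose metabolites acting through ChREBP, raise transcription of the enzymes that carry pyruvate to citrate, malonyl-CoA, palmitate and oleate, while fasting and fatty acids acting through PPAR-alpha raise the enzymes of fat oxidation. Glucocorticoids, growth hormone and the clock also set the level of many liver transcripts over the day.

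Most large response differences sat at the dim end of the array. Of the 19807 probes kept, 5308 were past 2-fold in either direction (26.8% of those kept), with 2689 higher (13.6%) and 2619 lower (13.2%) in the congenic response. The share past 2-fold was 48.3% for probes between the filter level and a mean log2 level of 10, 40.2% from 10 to 11, 17.2% from 11 to 12, 5.01% from 12 to 13, 1.82% from 13 to 15 and 1.14% from 15 up. The strains' responses, which share no array, were correlated over probes with Pearson's r of 0.15 among all kept probes and 0.60 among the 5152 probes at a level of 13 or more. Probes are not independent replicates, so r describes these 4 arrays only. Genes at a mean level of 13 or more are called bright below. In that range 79 probes were past 2-fold (1.53%) and the standard deviation of the response difference was 0.40, against 1.13 over all kept probes.

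**Figure D1:**
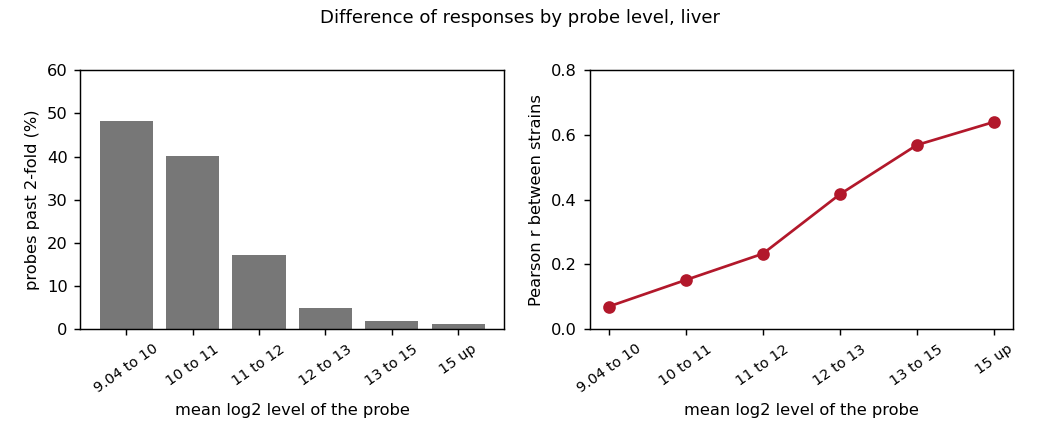
Share of liver probes whose response difference was past 2-fold (left, % of probes) and Pearson's r between the congenic and B6 diet responses over probes (right), by the mean log2 level of the probe over the 4 liver arrays. The share was 48.3% in the dimmest class and 1.14% in the brightest, and r was 0.07 and 0.64 in the same classes.

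Probes of a shared gene give a second view of the measurement spread. Among 82 genes with several bright probes the standard deviation between probes of a gene was 0.41, and in 13 of 18 such genes with a probe past 1.5-fold all probes had the same sign (72.2%). Among 321 genes with several kept probes it was 0.86, and 89 of 169 had probes of one sign (52.7%). A response difference near 1.5-fold (0.58 on the log2 scale) was therefore of the order of the spread between probes for bright genes and below it for dim ones. For this reason the account below leads with bright genes. Of 3264 bright genes, 169 had a congenic response at least 1.5-fold higher (5.18%) and 121 at least 1.5-fold lower (3.71%), and at 2-fold the counts were 24 (0.735%) and 14 (0.429%). Over all 9748 genes kept, 1884 were at least 1.5-fold higher (19.3%) and 1707 lower (17.5%), with a median of 0.03.

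Few bright genes had responses past 1.5-fold that ran in opposite directions in the strains. Past 2-fold, 8 bright genes were higher on 2-choice in both strains and 19 lower in both, 34 were higher in the congenic pool only and 23 lower in it only, 12 were higher in the B6 pool only and 30 lower in it only, and 0 went in opposite directions. The split into one strain only rests on a threshold and is not itself a difference: of the 34 genes higher in the congenic pool only, 8 had a response difference past 2-fold. At 1.5-fold the count of bright genes with opposite responses was 4: Cyp2f2, higher in the congenic pool and lower in the B6 pool, and Mt1, Cyp2j9 and Cyp4a14, the other way round.

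**Figure D2:**
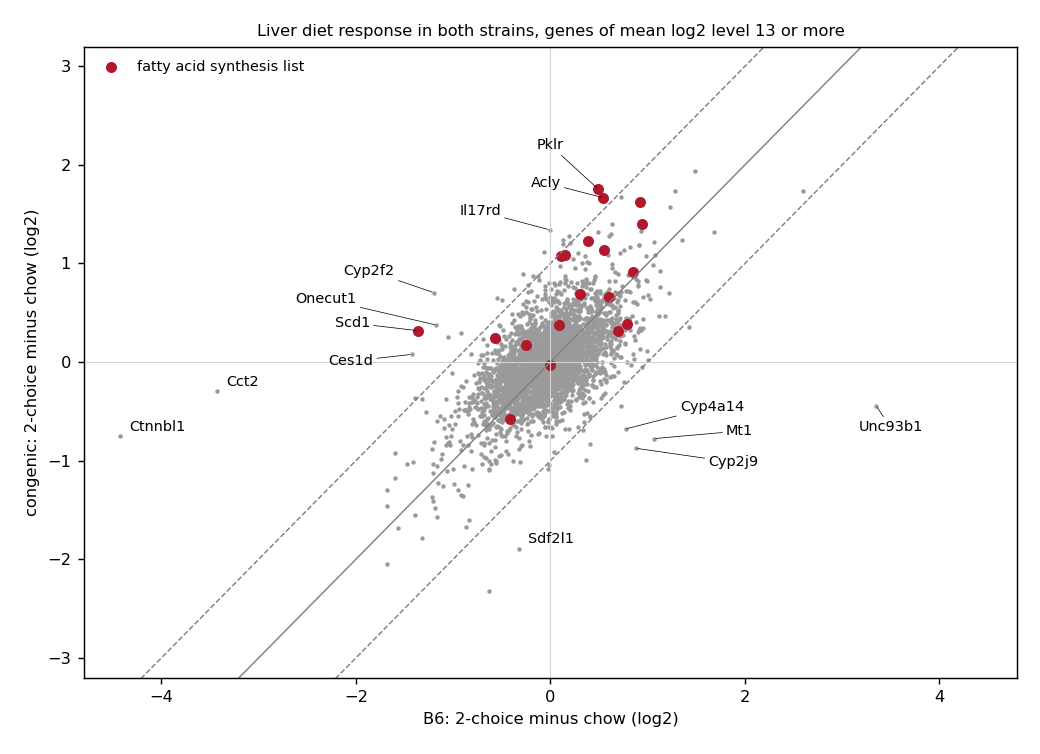
Diet response (2-choice minus chow, log2) of the 3264 bright genes in liver, B6 on the x axis and congenic on the y axis, 1 pool per strain and diet. The solid line marks equal responses and the dashed lines a response difference of 2-fold. Red points are the fatty acid synthesis list. Pklr and Acly lie above the upper dashed line, Scd1, Cyp2f2, Ces1d and Onecut1 lie to its left at negative B6 responses, and Mt1, Cyp2j9 and Cyp4a14 lie beyond the lower line.

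The enzymes of fatty acid synthesis had the highest median response difference of the pathway lists. Of 26 listed genes 21 had a named probe and all of these were kept: 9 had a congenic response at least 1.5-fold higher than the B6 response and 0 a lower one, 16 were above 0 and 5 below, and the median was 0.47 against 0.03 over all genes. All 9 were bright, 9 of 19 bright members against the 5.18% of bright genes given above. The median diet response of the list was 0.66 in the congenic pool and 0.30 in the B6 pool, so the list was higher on 2-choice in both strains and further above chow in the congenic one. The summed intensity of the 21 genes, on the log2 scale, was 21.65 in congenic chow, 22.34 in congenic 2-choice, 21.60 in B6 chow and 22.03 in B6 2-choice. The chow livers were thus close to each other, and the congenic 2-choice liver was the highest of the 4.

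Pklr encodes liver pyruvate kinase, the last step of glycolysis and a standard readout of hepatic carbohydrate sensing. Its log2 level was 13 in congenic chow, 13.13 in B6 chow, 13.62 in B6 2-choice and 14.76 in congenic 2-choice. It was 3.39-fold higher on 2-choice in the congenic pool and 1.4-fold higher in the B6 pool, a response difference of 1.27. The congenic 2-choice liver stood apart, and the other 3 arrays lay within 0.62 of each other. Its RefSeq promoter in the GRCm38.p6 build is printed because it holds the element through which carbohydrate is known to act on this gene. Of the starts listed for Pklr, the one with the match is shown, as the 250 bases upstream, chr3:89136373-89136622 on the + strand, written 5′ to 3′ with the match in capitals.

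Pklr: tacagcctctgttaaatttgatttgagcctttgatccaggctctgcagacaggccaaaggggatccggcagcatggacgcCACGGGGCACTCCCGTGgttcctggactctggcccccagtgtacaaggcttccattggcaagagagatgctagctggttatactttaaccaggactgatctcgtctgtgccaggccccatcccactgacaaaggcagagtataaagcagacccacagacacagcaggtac

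The capitals mark a carbohydrate response element, searched on both strands as CACGNG and CNCGTG set 5 bases apart. The match lies 153 to 170 bases before the start. In all, 12 of 27025 genes in the promoter table have such a match in this window (0.0444%), and among the 7941 kept genes with a promoter it was 1, Pklr. A related E-box, CACGTG, was in 6.86% of all promoters, 9.41% of those of kept genes and 3 of the 16 fatty acid synthesis promoters in the table (Mlxipl, Slc25a1 and Elovl5). It was also in 5 of 14 cholesterol synthesis promoters and 3 of 14 clock promoters, so it does not set the fatty acid list apart. A sterol element, TCACNCCAC, was in 1.22% of all promoters, 1 of the 16 (Mlxipl) and 1 of the 14 cholesterol synthesis promoters. A match of letters is a description of the sequence and not evidence of binding, and these elements were searched after the values of the genes had been seen.

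Acly, ATP citrate lyase, makes the cytosolic acetyl-CoA that fatty acids are built from. Its levels were 13.66 in congenic chow and 15.32 in congenic 2-choice, against 13.19 in B6 chow and 13.73 in B6 2-choice, a response difference of 1.13. Acss2, which makes acetyl-CoA from acetate, was at 14.38 and 15.47 in the congenic pools and at 14.41 and 14.56 in the B6 pools, a response difference of 0.94. In both genes the congenic 2-choice liver was the one apart. Me1, malic enzyme and a source of NADPH for the pathway, was at 14.97 and 16.05 in the congenic pools against 15.31 and 15.42 in B6, a response difference of 0.97.

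Fasn, Elovl6 and Thrsp were higher on 2-choice in both strains, with a larger step in the congenic pool. Over the list, 18 of the 21 genes were above their chow level in the congenic pool and 14 in B6, against 4559 and 4400 of all 9748 kept genes. Fasn, the fatty acid synthase, was at 16.08 and 17.71 in the congenic pools and at 15.94 and 16.86 in the B6 pools, which is 3.09-fold and 1.89-fold. Elovl6, which extends palmitate, was at 15.93 and 17.15 against 15.96 and 16.34, a response difference of 0.85, and Elovl5 had a response difference of 0.59. Thrsp (Spot 14), a lipogenic protein that is highly sensitive to carbohydrate and thyroid hormone, was at 18.68 and 20.08 against 18.56 and 19.49, a response difference of 0.47. Lpin1, the phosphatidate phosphatase, had a different shape, with a diet response of 0.24 in the congenic pool and -0.57 in B6, a response difference of 0.81.

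Scd1, the stearoyl-CoA desaturase that makes oleate, had the highest value of the list and another shape. Its levels were 17.55 in congenic chow, 17.87 in congenic 2-choice, 17.49 in B6 chow and 16.12 in B6 2-choice, a response difference of 1.68. Here the B6 2-choice liver was the low one and the other 3 lay within 0.39. Its relative Scd2, dim in this tissue, had a response difference of -0.37.

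The transcription factor genes of the pathway had values near or below 0. Srebf1, which encodes SREBP-1, was at 17.44 and 18.11 in the congenic pools and at 17.74 and 18.35 in the B6 pools, a response difference of 0.06. Mlxipl, which encodes ChREBP, was at 16.63 and 17.01 against 15.96 and 16.75, a response difference of -0.40. The desaturase Fads2 was 0.91 higher on 2-choice in the congenic pool and 0.85 in B6, and Fads1 0.32 and 0.69. Other members lay between, with 0.50 for Gpam, which starts glycerolipid synthesis, 0.43 for the mitochondrial citrate carrier Slc25a1 and 0.39 for the acyl-CoA synthetase Acsl5. The triglyceride-forming Dgat2 (0.29) and Dgat1 (-0.16) and the pentose pathway enzyme Tkt (-0.02) were near 0.

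**Figure D3:**
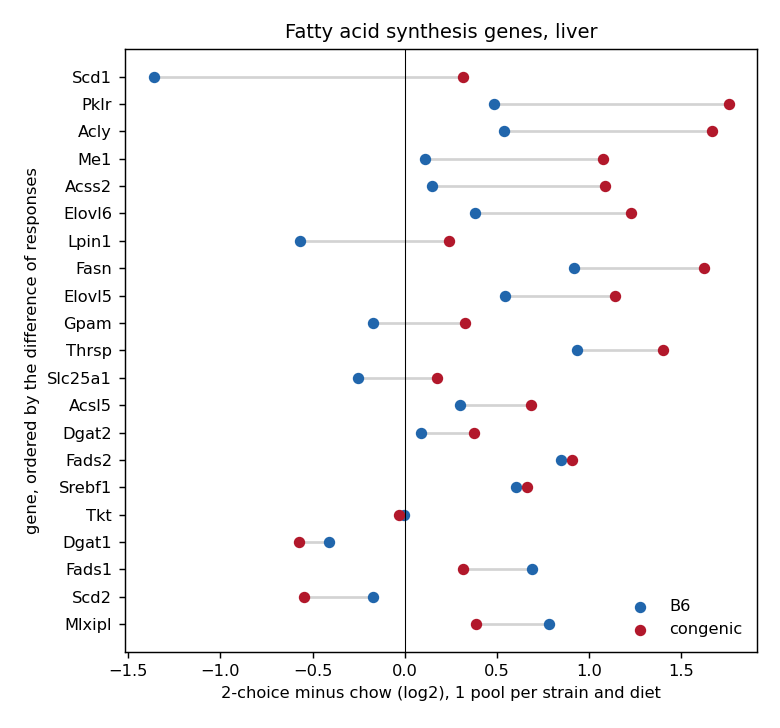
Diet response (2-choice minus chow, log2) of the 21 kept fatty acid synthesis genes in the congenic (red) and B6 (blue) livers, 1 pool per strain and diet, ordered by the response difference. The red point lies to the right of the blue one in 16 genes, by most in Scd1 (1.68), Pklr (1.27) and Acly (1.13), and to its left in 5, by most in Mlxipl (-0.40).

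Cholesterol synthesis, the other SREBP pathway, showed no such gap. Of its 17 kept genes 0 were past 1.5-fold in either direction, 8 were above 0 and 9 below, the range was -0.26 to 0.49 and the median -0.01. In this list 15 members were bright, and the bright shares at 1.5-fold were 5.18% higher and 3.71% lower. Insig1, a sterol-sensing brake on SREBP processing, was 0.63 higher on 2-choice in the congenic pool and 0.58 in B6. Hmgcs1, an early enzyme of the pathway, had responses of 0.04 and 0.09.

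Of 33 listed genes of glucose output, glycolysis and glycogen 21 were kept, and their median was 0.19. Over the kept genes 5 were at least 1.5-fold higher and 2 lower, against 19.3% and 17.5% of all kept genes. All 5 were among the 20 bright members, of which 1 was lower, against 5.18% and 3.71% of bright genes. Pklr, described above, is on this list too. Khk, the ketohexokinase that commits fructose, was at 17.23 and 17.89 in the congenic pools and at 17.39 and 17.33 in B6, a response difference of 0.71. Pygl, liver glycogen phosphorylase, was at 17.48 and 18.21 against 17.55 and 17.50, a response difference of 0.79. In both, the B6 pools were level and the congenic 2-choice liver was the highest array.

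The glucose transporter Slc2a2 (0.81) and Gapdh (0.83) also had higher congenic responses, with other arrays apart. Slc2a2 was at 15.80 and 16.12 in the congenic pools and at 16.63 and 16.14 in B6, so the chow livers were the lowest and the highest array. Gapdh was lowest in B6 2-choice at 18.85 against 19.50 to 19.86 elsewhere. Pck1, the cytosolic PEP carboxykinase of glucose production, had a response difference of -0.67, with B6 chow low at 20.31 and the others at 20.80 to 20.91. G6pc, the catalytic subunit of glucose-6-phosphatase, was 3.83-fold higher on 2-choice in the congenic pool and 2.81-fold in B6, a response difference of 0.45. Pfkfb3, a dim regulator of glycolysis, had a response difference of -1.02.

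Fatty acid oxidation as a group was centred near 0, with a few genes apart. Of 35 kept genes 3 were at least 1.5-fold higher and 1 lower, against 19.3% and 17.5% of all kept genes, and the median was 0.10. Of the 29 bright ones 1 was higher and 1 lower, against 5.18% and 3.71% of bright genes. Cyp4a14, a fatty acid omega-hydroxylase and a classic PPAR-alpha target, was the lower one, at 16.22 and 15.55 in the congenic pools and at 16.71 and 17.48 in the B6 pools. It was thus 1.60-fold lower on 2-choice in the congenic liver and 1.71-fold higher in B6, a response difference of -1.45. Plin2, the coat protein of lipid droplets, had the opposite order, at 15.86 and 16.29 against 15.93 and 15.55, a response difference of 0.81. Cpt1a, the gatekeeper of mitochondrial fat oxidation, was dimmer, at 11.78 on both congenic arrays, 12.34 in B6 chow and 11.14 in B6 2-choice (1.19). Pdk4, which restrains pyruvate oxidation, had a response difference of 1.91 that rests on a congenic chow level of 8.26, under the filter level, and with values under that level set to it the difference was 1.13.

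Several of the bright genes with the highest values were low in the B6 2-choice liver alone. They were picked by their values and form no list. Cyp2f2, a P450 known from periportal hepatocytes, was at 20.20 and 20.91 in the congenic pools, at 20.33 in B6 chow and at 19.13 in B6 2-choice, a response difference of 1.90. Ces1d, a carboxylesterase that hydrolyses triglyceride, was at 19.88, 19.96, 19.92 and 18.49 in the same order (1.5). Onecut1 (HNF-6), a hepatocyte transcription factor, was at 15.10, 15.48, 15.38 and 14.21 (1.55). Together with Scd1 these 4 genes had 3 arrays within 0.70 of each other and B6 2-choice below all of them.

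Hc, complement component C5, had the same order at 14.66, 14.96, 14.79 and 13.87 (1.22). Cct2, a subunit of the cytosolic chaperonin, had it in the extreme, at 17.59, 17.30, 17.38 and 13.95 (3.13). Over the 290 bright genes past 1.5-fold, the array that stood apart was B6 2-choice in 83 (28.6%) and congenic chow in 80 (27.6%). It was congenic 2-choice in 78 (26.9%) and B6 chow in 49 (16.9%), so no array carried most of them. Over all 3264 bright genes the shares were 32.3%, 25.7%, 21.9% and 20.1% in the same order. B6 2-choice was thus not more often apart among the genes past 1.5-fold than among all bright genes. Periportal markers as a group did not follow Cyp2f2, in zonal lists added after the values were seen. Of 11 kept periportal genes 1 was higher (Cyp2f2) and 2 lower (Pck1 and Alb), with 5 above 0, 6 below and a median of -0.02. Of 12 pericentral genes 1 was higher (Lect2, 0.80) and 0 lower, with 11 above 0, 1 below and a median of 0.17. Each list had 10 bright members, which held all of these called genes, against 5.18% higher and 3.71% lower of bright genes.

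**Figure D4:**
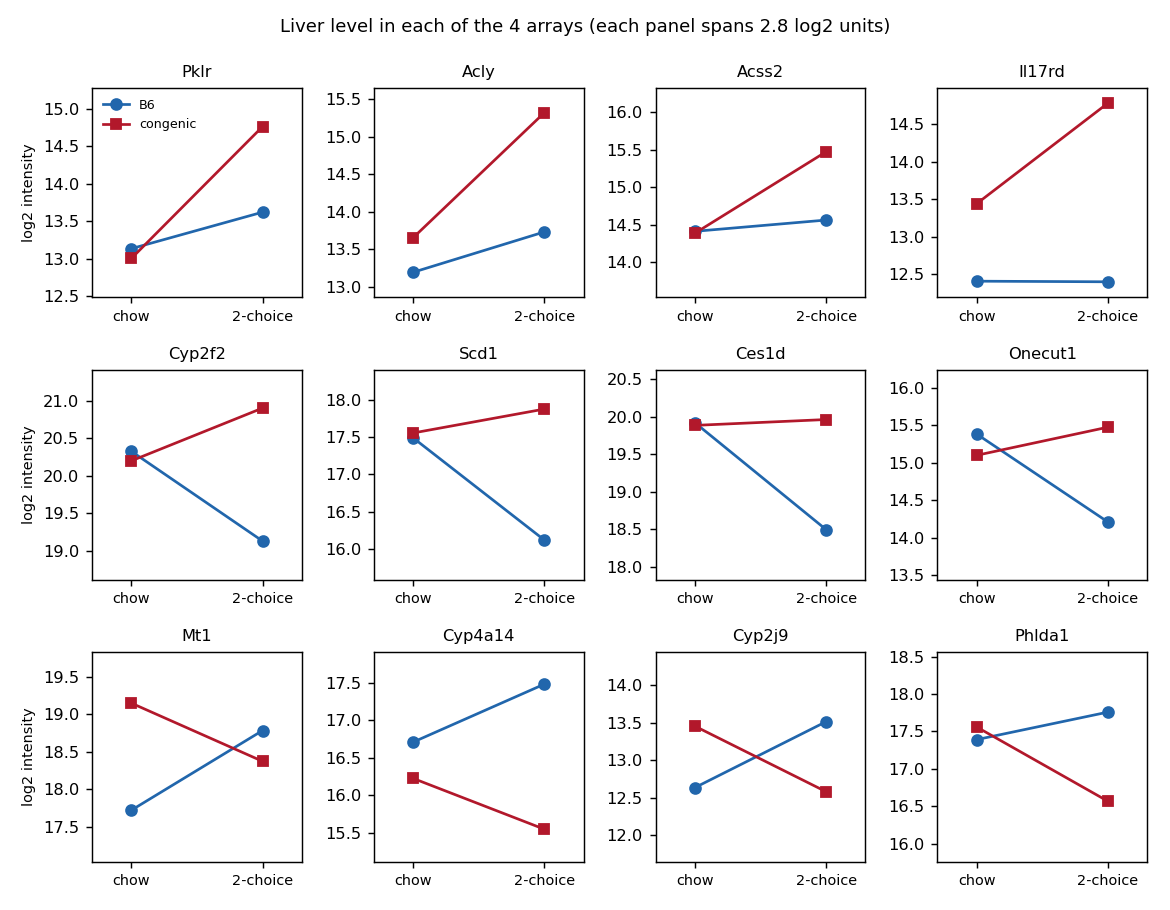
Log2 intensity of 12 bright genes on the 4 liver arrays, with chow on the left and 2-choice on the right of each panel, B6 as blue circles and congenic as red squares; each point is 1 pool of 6 mice and all panels span the same range. In the top row the congenic 2-choice liver was highest (Pklr 14.76, Acly 15.32), in the middle row the B6 2-choice liver was lowest (Cyp2f2 19.13, Scd1 16.12), and in the bottom row the lines ran in opposite directions (Mt1, Cyp4a14, Cyp2j9, Phlda1).

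P450 and other xenobiotic genes had a median of 0.05. Of 61 kept genes 7 had a congenic response at least 1.5-fold higher and 7 a lower one, against 19.3% and 17.5% of all kept genes, and of the 50 bright ones 5 and 2, against 5.18% and 3.71% of bright genes. On 2-choice itself 22 of the 61 were at least 1.5-fold below chow in the congenic pool and 23 in the B6 pool, against 18.5% and 15.8% of all kept genes. Cyp2c55, for example, had a congenic response of -3.78 and a B6 response of -2.90. The common part of the response was thus larger than its difference between strains in that gene. Il17rd, a receptor-like inhibitor of growth factor signalling, was at 13.44 and 14.78 in the congenic pools and at 12.41 and 12.40 in B6 (1.35), so it was higher in the congenic strain on both diets with a response of -0.01 in B6.

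The list of sex-biased, growth hormone and IGF genes, which holds male-biased and female-biased transcripts, had a median of 0.06. Of 25 kept genes 7 were at least 1.5-fold higher and 3 lower, against 19.3% and 17.5% of all kept genes, and of the 17 bright ones 5 were higher and 0 lower, against 5.18% and 3.71% of bright genes. Hsd3b5, a male-specific steroid enzyme, was at 16.90 and 17.80 in the congenic pools and at 17.85 and 17.57 in B6, a response difference of 1.18, with congenic chow the low array. Hsd3b4, outside the list, was at 15.29 and 15.54 against 16.21 and 15.15 (1.31). The pheromone carrier Mup5 (0.79) and the complement gene C6 (0.76) had higher congenic responses too. The female-biased Cyp2b13 (0.95) and Cyp2b9 (-1.38) had opposite signs. Cish, a growth hormone-induced inhibitor of STAT5, was dimmer, at 12.02 and 11.35 in the congenic pools and at 12.36 and 9.77 in B6, a response difference of 1.91, while Stat5b itself was at -0.98.

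The lowest response differences among bright genes differed in which array stood apart. Mt1, the metal- and glucocorticoid-inducible metallothionein, was at 17.72 in B6 chow, 18.37 in congenic 2-choice, 18.78 in B6 2-choice and 19.15 in congenic chow. On 2-choice it was 1.71-fold lower in the congenic pool and 2.09-fold higher in B6, a response difference of -1.84, and a second Mt1 probe gave -1.51. Both probes thus put the chow livers at the ends of the range. Cyp2j9, an arachidonate-metabolising P450, was at 13.46 and 12.58 in the congenic pools and at 12.64 and 13.52 in B6 (-1.75). Phlda1 was at 17.56 and 16.57 against 17.39 and 17.76 (-1.36), with the congenic 2-choice liver the low one.

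Immediate early and stress genes had a median of -0.17, and of 29 kept genes 6 were at least 1.5-fold higher and 9 lower, against 19.3% and 17.5% of all kept genes. Among the lower ones were Jun (-0.77), Btg2 (-0.61) and Ier5 (-1.06), each with its lowest level in the congenic 2-choice liver: Jun was at 13.26 and 12.85 in the congenic pools and at 13.21 and 13.57 in B6. Socs3, a feedback inhibitor of cytokine signalling, was at 13.69 and 13.38 against 13.21 and 13.77 (-0.87). Most of the higher ones, such as Fosb (1.99) and Ier3 (1.73), had mean levels under 11, where large values are common. Of the 11 bright members 0 were higher and 3 lower, against 5.18% and 3.71% of bright genes, with a median of -0.35. Other arrays were apart in some lower members: Mt1 (-1.84) was lowest in B6 chow, and the dimmer Klf6 (-1.10) was highest in congenic chow.

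Genes of the unfolded protein response did not move as a block. Of 25 kept genes 2 were at least 1.5-fold higher and 4 lower, against 19.3% and 17.5% of all kept genes. Of the 18 bright ones 1 was higher and 1 lower, against 5.18% and 3.71% of bright genes. Sdf2l1 and Creld2, both endoplasmic reticulum proteins that accompany secretory load, went in opposite directions: Sdf2l1 was at 14.12 and 12.23 in the congenic pools and at 13.11 and 12.79 in B6 (-1.57), and Creld2 at 14.21 and 15.25 against 14.02 and 14.26 (0.81). The chaperone Hspa5 (BiP) had responses of 0.80 and 0.44. Asns, asparagine synthetase and a marker of amino acid shortage, had a response difference of -1.13 at a mean level of 11.60. Rrbp1, a ribosome-binding protein of the endoplasmic reticulum outside the list, was at 15.77 in congenic 2-choice and at 16.82, 16.82 and 16.83 elsewhere (-1.03).

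Acute phase and secreted plasma protein genes had a median of 0.16, with 5 of 29 at least 1.5-fold higher and 2 lower, against 19.3% and 17.5% of all kept genes. Of the 25 bright members 2 were past 1.5-fold each way, against 5.18% higher and 3.71% lower of bright genes. Saa2, an acute phase apolipoprotein, was at 11.34 and 12.34 in the congenic pools and at 11.79 and 11.73 in B6 (1.06), and Lcn2, the iron-binding lipocalin, at 11.63 and 12.46 against 11.60 and 11.23 (1.21). In both the congenic 2-choice liver was the highest array, at levels where the spread between probes is wide. Orm2 (1.75) was instead highest in B6 chow at 13.41. Among the brightest transcripts Ttr had a response difference of 0.70 and Alb of -0.63.

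Interferon-induced genes had a median of 0.36, with 7 of 27 kept genes at least 1.5-fold higher and 4 lower, against 19.3% and 17.5% of all kept genes. Ifi47, an immunity-related GTPase, was at 13.90 and 14.90 in the congenic pools and at 13.97 and 14.30 in B6 (0.68), and the RNA sensor Ifih1 at 12.43 and 13.20 against 12.35 and 12.26 (0.85). Both were highest in the congenic 2-choice liver. Rtp4 (2.08) was lowest in B6 2-choice, at 10.07 against 11.95 to 12.12, and Isg15 had the opposite sign (-1.04).

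Class I antigen presentation genes, many of them on chromosome 17, had a median of 0.29, with 4 of 15 at least 1.5-fold higher and 0 lower, against 19.3% and 17.5% of all kept genes. H2-T23 was at 16.32 and 16.72 in the congenic pools and at 16.63 and 16.24 in B6 (0.79), and the immunoproteasome subunit Psmb8 at 13.48 and 14.07 against 13.86 and 13.58 (0.87). For both, the sign of the response differed between the strains and each step was under 1.5-fold or close to it. Of 8 kept class II genes 7 were below chow on 2-choice in each strain, and H2-Ob was above it in both. Of all 9748 kept genes, 4559 were above chow in the congenic pool and 4400 in B6. The median response of the class II genes was -1.10 in the congenic and -1.16 in the B6 pool. The invariant chain Cd74 was at 14.56 and 13.20 against 15.02 and 13.81. H2-Ea, which C57BL/6 mice lack, was at 12.62 and 11.35 in the congenic pools and at 8.52 and 8.39 in B6, under the filter level, so its value of -1.14 has no measured B6 side.

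Most markers of resident macrophages were lower on 2-choice in both strains. Of 12 listed Kupffer cell and macrophage genes 10 were kept, of which 10 were at least 1.5-fold below chow in the congenic pool and 8 in the B6 pool, against 18.5% and 15.8% of all kept genes, and 2 were above chow in B6 (Marco and Adgre1). The median responses were -1.58 in the congenic and -0.95 in the B6 pool. All 10 had a response difference below 0, with a median of -0.42, and 4 were at least 1.5-fold lower, against 17.5% of all kept genes. Of the 6 bright members 1 was at least 1.5-fold lower (Lyz2), against 3.71% of bright genes, and their median was -0.34. Their summed intensity on the log2 scale was 18.32 in congenic chow, 16.78 in congenic 2-choice, 18.23 in B6 chow and 17.13 in B6 2-choice. In bulk liver, fewer cells of a type and less RNA per cell cannot be told apart. Lyz2, lysozyme, was at 16.19 and 14.60 against 15.94 and 15.10 (-0.76), and the complement gene C1qa at 15.98 and 14.62 against 15.90 and 15.01 (-0.46). Vsig4, a complement receptor of Kupffer cells, was at 13.57 and 10.99 against 13.69 and 11.89 (-0.78). The widest values, Marco (-4.03) and Adgre1 (-2.79, on chromosome 17), were dim and rested on a single high congenic chow array.

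Whether this macrophage signal bears on the immune lists was not tested. Of 9 kept sinusoidal endothelium markers 8 were below chow on 2-choice in each strain, with median responses of -0.82 and -0.73. Of all 9748 kept genes, 4559 were above chow in the congenic pool and 4400 in B6. The median response difference of these markers was 0.14, with 0 at least 1.5-fold higher and 3 lower, against 19.3% and 17.5% of all kept genes. The lowest was -1.88, and of the 5 bright markers 0 were past 1.5-fold either way. The alpha globin Hba-a1, carried by blood left in the tissue, was at 17.13 and 15.46 in the congenic pools and at 17.33 and 16.47 in B6 (-0.80). Of 5 kept hepatocyte markers, all bright, 1 was at least 1.5-fold higher (Ttr) and 2 lower (Alb and Tat), against 5.18% and 3.71% of bright genes. Their values ran from -0.68 to 0.70, with a median of 0.00. The summed log2 intensity of these 5 was 23.17, 23.04, 22.83 and 22.66 in congenic chow, congenic 2-choice, B6 chow and B6 2-choice. The remaining marker lists had 1 to 5 kept members each, nearly all dim. Among them Tnni2, a fast muscle troponin, was at 16.61 in congenic chow and at 8.29 to 9.19 elsewhere, while no other kept muscle marker was above 10.78 on any array.

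Clock genes had a median of 0.21, with 5 of 18 kept genes at least 1.5-fold higher and 0 lower, against 19.3% and 17.5% of all kept genes. Of the 10 bright members 1 was higher and 0 lower, against 5.18% and 3.71% of bright genes. Per2, a core repressor that is also acutely induced by feeding and hormones, was 1.73 higher on 2-choice in both strains. Dbp, an output gene with a steep daily rhythm, was at 18.21 and 17.87 in the congenic pools and at 17.99 and 17.59 in B6, a response difference of 0.07. Both thus had responses of like size in the strains. Of the 5 higher ones Bhlhe40 was the bright one, at 13.03 and 14.04 against 13.12 and 13.51 (0.61), and the dimmer ones were Bhlhe41 (1.03), Cry1 (0.76), Wee1 (0.64) and Cry2 (1.47, with values under the filter level).

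Several large groups had medians near 0. Their counts at 1.5-fold stand against 19.3% higher and 17.5% lower of all kept genes. Most of their members were bright, and among bright genes the shares were 5.18% and 3.71%. Amino acid breakdown and the urea cycle had 1 gene higher (Prodh, 0.88) and 1 lower (Tat, -0.68) of 32, with a median of 0.04. Both were among its 31 bright members. The methionine cycle and glutathione list had 0 higher and 1 lower (Mt1) of 23, at -0.04, and 21 of its members were bright, Mt1 among them. Bile acid genes had 3 higher and 0 lower of 25, at 0.05, and apolipoproteins 2 higher and 0 lower of 21, at 0.06. All 3 of the bile acid genes were among the 21 bright members of that list, against 5.18% of bright genes. The median of those bright members was 0.12. Of the 17 bright apolipoprotein genes 1 was higher and 0 lower, against 5.18% and 3.71% of bright genes. Among the shared parts of the response, Apoa4 was 1.57 higher on 2-choice in the congenic pool and 1.23 in B6, Igfbp1 0.86 in both, and Oat was -1.12 and -1.21.

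Cytosolic ribosomal proteins (median -0.15, 37 of 49 below 0) and oxidative phosphorylation (-0.14, 31 of 47 below 0) leaned slightly the other way, while proteasome subunits leaned up (0.18, 17 of 23 above 0). Over all kept genes 5100 of 9748 were above 0. Over the ribosomal, oxidative phosphorylation and proteasome lists 1 gene was at least 1.5-fold higher (Rpl21, 0.76) and 1 lower (Cox8a, -0.61). The shares of all kept genes were 19.3% and 17.5%, and those of bright genes 5.18% and 3.71%. Bright members numbered 48 of 49, 45 of 47 and 21 of 23 in these lists, and included both genes. Nuclear receptors (0.08) and haem and globin genes (-0.07) were near 0. The cell cycle list (0.03), nearly all of it dim, held 8 higher and 4 lower of 19, against 19.3% and 17.5% of all kept genes. Its median ran from -0.09 to 0.40 over the processing settings.

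**Figure D5:**
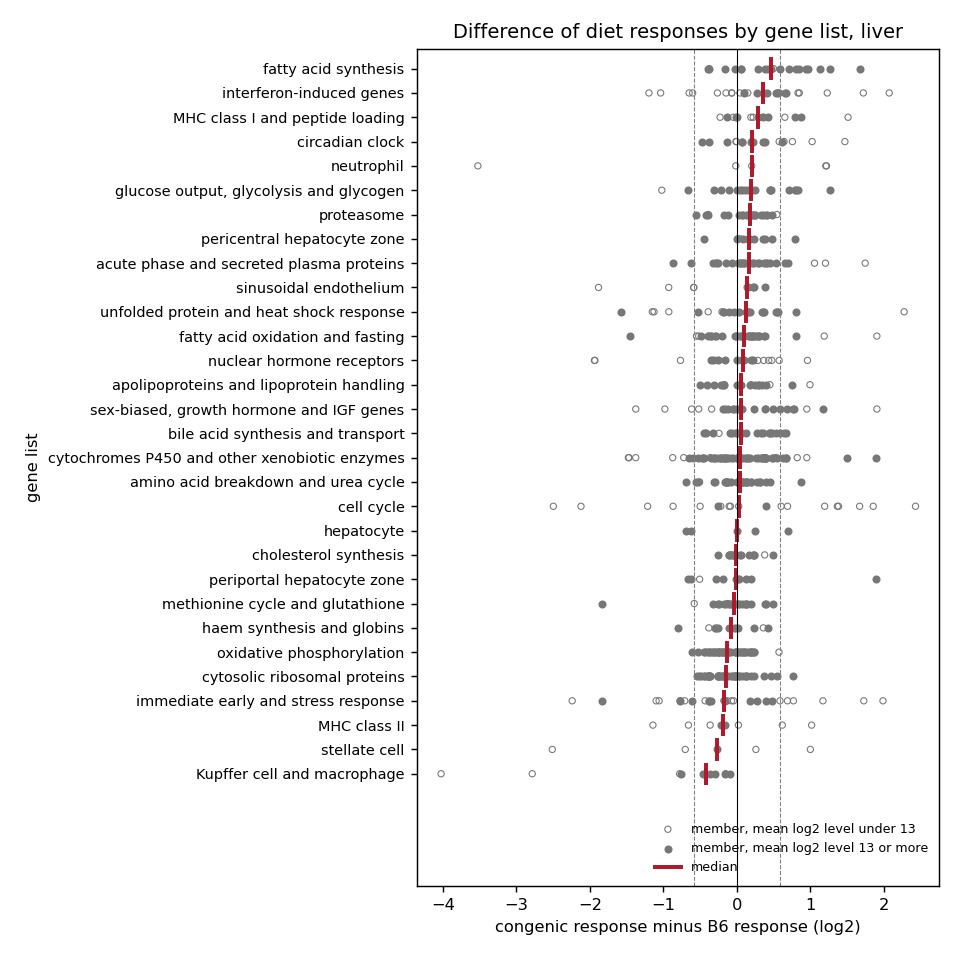
Response difference (congenic minus B6 diet response, log2) of each kept member of the gene lists with at least 5 kept members, with bright genes as filled and dimmer genes as open circles and the list median as a red bar; dashed lines mark 1.5-fold. Fatty acid synthesis had the highest median (0.47) and Kupffer cell and macrophage markers the lowest (-0.42).

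Several of the widest values belonged to genes that were far from the rest on a single array. Over all kept genes the values ran from -10.74 to 9.88, and the genes at both ends had arrays under the filter level. Among genes at or above that level on all 4 arrays, Wbp2 was at 17.17 in congenic chow and at 11.14 to 11.78 elsewhere (-6.36), and Vps33a at 17.47 in congenic chow and at 10.35 to 11.55 elsewhere (-6.29). Ctnnbl1 was at 16.33 in B6 chow and at 11.75 to 12.50 elsewhere (3.68), and Cldn16, a tight junction gene of kidney, at 14.34 in B6 chow and at 10.59 to 10.69 elsewhere (3.58). Unc93b1, which carries Toll-like receptors to endosomes, was instead low in B6 chow, at 10.91 against 14.08 to 14.52 (-3.80). In these 5 genes 3 arrays were close together and 1 stood apart and that array was a chow liver each time.

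Ppm1a, a protein phosphatase, was low in congenic 2-choice, at 9.29 against 13.20 to 13.62 (-4.17). For Kpna2, an importin, the brightest probe gave -3.06 and a second probe 0.61, so the probes disagree. The other genes with the widest values were dimmer: the higher ones were Trex2 (3.23), Itga7 (3.21), Mustn1 (3.01), Doc2b (3.0), Acox3 (2.95), Jdp2 (2.92), Btn1a1 (2.89), Rhobtb3 (2.70) and Pitpnc1 (2.69), and the lower ones Crhr2 (-3.98), Lpar2 (-3.73), Tmem170 (-3.57), Olfr1388 (-3.16), Vps45 (-3.02), Cby1 (-2.88) and Zmynd8 (-2.87). Their mean log2 levels were at most 11.23, in the range where 17.2% to 48.3% of probes were past 2-fold. Over the 5308 probes past 2-fold, congenic chow stood apart in 1818 (34.3%) and congenic 2-choice in 1635 (30.8%). B6 chow did so in 955 (18.0%) and B6 2-choice in 900 (17.0%). Over all 19807 kept probes the shares were 29.3%, 26.2%, 20.2% and 24.4% in the same order.

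Genes on chromosome 17, which carries the donor segment, had about the same share of wide response differences as others. Of 500 kept genes there, 189 were past 1.5-fold (37.8%) against 36.8% of 9240 kept genes on other chromosomes, and 21.0% against 21.4% were past 2-fold. Among bright genes the shares at 1.5-fold were 16 of 165 (9.70%) and 8.84%. Tead3, a transcription factor of the Hippo pathway, was at 11.76 in congenic chow, 11.79 in B6 chow, 12.09 in B6 2-choice and 13.96 in congenic 2-choice (1.89), and was thus apart on the congenic 2-choice array alone. The others at the ends of the chromosome were dimmer: Ciao3 (2.67), Crisp3 (1.89), Ly6g5b (1.88) and Ier3 on the higher side, and Adgre1, Ddx11 (-2.01), Zfp472 (-1.83), Rab40c (-1.69) and Morn2 (-1.64) on the lower.

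Some genes of the chromosome stood apart between the strains on both diets, by gaps that were not always of one size. Decr2, the peroxisomal dienoyl-CoA reductase, was at 13.92 and 14.45 in the congenic pools and at 16.55 and 16.77 in B6, a response difference of 0.31. Cyp4f14, a fatty acid and vitamin E hydroxylase, was at 17.00 and 16.71 against 18.79 and 18.24 (0.26). Glo1, which clears methylglyoxal, was at 16.75 and 16.69 against 16.37 and 15.91 (0.39), and the acyltransferase Agpat1 had a value of -0.24. Glp1r, the GLP-1 receptor, was dim at 9.14 to 10.93, and its value of 1.5 rests on B6 chow. Measured in the same way, the hypothalamus arrays had 7257 of 19807 kept probes past 2-fold (36.6%) and 280 of 5026 bright probes (5.57%), a wider spread than in liver. The hypothalamus chow arrays differed in intensity distribution from the 2-choice arrays, so these counts are side by side values and no comparison of the tissues.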

How the data were processed

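The deposited values were linear probe intensity from single-channel chemiluminescent arrays, per the labels' protocols. How the authors corrected background and normalized is not given in the sources used here. Of 33012 probes, 14411 had 1 gene symbol in the platform annotation, 247 had several and 18354 were not listed; symbols were updated through Entrez IDs to RefSeq (GRCm38.p6), and the annotation can be old. Intensities were taken to log2 and quantile normalized over the 4 liver arrays with limma 3.58.1 in R 4.3.3, and differences were computed with pandas 2.3.3 in Python 3.11.15. Probes with a mean at or above the 40th percentile (9.04) were kept. The computation was tested on simulated data. No p-value was computed, since each group was 1 pool.

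Genes named were the 12 highest and 12 lowest response differences among genes at or above the filter level on all 4 arrays and past 2-fold with and without scaling, up to 8 each way with opposite responses past 2-fold, up to 4 of each list, 5 each way on chromosome 17 and a fixed set of metabolic, clock and strain genes. The members and lists were chosen with earlier results of these data known. The bright level of 13, the 15 highest and 15 lowest bright genes, the zonal lists, the carbohydrate element and further list members were chosen after the values were seen. The alternatives were other scalings, filters, a floor and the mean over probes. The hypothalamus arrays were used for a side count only.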

Additional observations from a re-analysis of the deposited data

Results flagged for a closer look

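Of the named genes, 19 were picked out because the pools of the strains went in opposite directions on 2-choice relative to chow, each past 2-fold, or past 1.5-fold for bright genes. Each direction is 1 pool against 1 pool, and the difference between the strains was not tested. The bright ones were 4. Cyp2f2 (1.90) was higher on 2-choice in the congenic liver and lower in the B6 liver. Mt1 (-1.84), Cyp2j9 (-1.75) and Cyp4a14 (-1.45) were the other way round, and the second Mt1 probe had the same sign.

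The rest had mean log2 levels of about 10 to 11, where response differences past 2-fold are common. Higher in the congenic and lower in the B6 liver were Itga7 (3.21), Acox3 (2.95), Btn1a1 (2.89), Ciao3 (2.67), Sh3kbp1 (2.52), Nol9 (2.42) and Fam131a (2.21). Lower in the congenic and higher in the B6 liver were Crhr2 (-3.98), Lpar2 (-3.73), Tmem170 (-3.57), Olfr1388 (-3.16), Zmynd8 (-2.87), Nkx2-4 (-2.82), Tasp1 (-2.54) and Tmem229b (-2.42). Acox3 encodes a peroxisomal acyl-CoA oxidase and Crhr2 a receptor of the corticotropin-releasing hormone family. Acox3 was at 9.42 and 10.74 in the congenic chow and 2-choice livers and at 11.20 and 9.57 in B6, and Crhr2 at 11.85 and 9.07 against 9.20 and 10.40.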

How the results depend on the processing

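The filter on dim probes moved the counts, and the scaling did not. Against 5308 probes past 2-fold, no filter gave 10105 (5048 higher and 5057 lower), and a filter at the 60th percentile gave 2136 (1119 and 1017). Levels added after the values were seen gave 181 at 12 and above (85 and 96), 79 at 13 and above (41 and 38) and 43 at 14 and above (24 and 19), and at these levels every such probe was measured on all 4 arrays. The counts stayed within 1.5 times of the reported ones without scaling after deposit, with equal medians, cyclic loess, quantiles over all 8 arrays and a floor, and the higher share of calls was 47.0% to 55.8% over all settings. In every setting where they could be computed, the medians of the 23 pathway lists moved by less than 0.41, the spread between bright probes of a gene. Fatty acid synthesis lay between 0.42 and 0.48 and interferon-induced genes between 0.32 and 0.42. This limit is loose, since the cell cycle median ran from -0.09 to 0.40 within it. Under the mean over probes Rpl21 changed sign to -0.38. The floor changed Arntl to -0.21 and Cyp1a1 to -0.63, both with arrays under the filter level. No paired analysis was possible because each group was 1 pool, and for the same reason no array could be left out. Depth in the sense of counts does not apply; signal over background limits the dim probes.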

Other observations

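Other bright genes at the ends of the range fell outside the lists. On the higher side, the transcription factor gene Zbtb7c was at 16.78 and 17.41 in the congenic chow and 2-choice livers and at 17.81 and 17.32 in B6 (1.12), and 1810055G02Rik at 15.55 and 16.67 against 16.32 and 16.25 (1.18). In both genes the congenic chow liver was the lowest array. Gatd1 was at 12.06 and 12.71 against 13.91 and 13.37 (1.19), so it was lower in the congenic strain on both diets and the gap was smaller on 2-choice.

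On the lower side, Foxq1, a forkhead transcription factor, was at 14.02 and 12.93 in the congenic livers and at 14.31 and 14.29 in B6 (-1.06). Ifi205, an interferon-inducible gene, was at 13.59 and 12.76 against 12.90 and 13.31 (-1.24). The splicing and RNA-binding genes Srrm2 (-0.99) and Hnrnpdl (-1.07) were lowest in B6 chow, at 14.36 and 12.26. For Srrm2, which lies on chromosome 17, the array that stood apart was B6 2-choice, at 15.30. Dnajc8, a splicing-associated J protein, was at 15.35 in congenic chow and at 12.94 to 13.57 elsewhere (-1.69). Etfbkmt had a value of -1.02, and for Pnkd the brighter probe gave -1.17 and a second probe -0.24. No explanation of these values was tested.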
